A study of Mus musculus with 6 samples.

Results

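The genes described here encode the factors that start and elongate translation in the mouse cytoplasm. They are the rows of the deposited table whose symbol begins with Eif or Eef and a digit, leaving out Eif2s3y, Eif2ak2, Eif2ak3 and names containing -ps, and they number 69 of the 55487 genes in the table. The pattern takes in some regulators and modifying enzymes, and 1 gene named after an Argonaute protein, Eif2c5. RNA was sequenced from bone marrow of mice whose genotype is given as Mmrn1-GFP type in all 6 samples, 3 labelled Mmrn1-low and 3 labelled Mmrn1-high. Every sample is labelled as long-term haematopoietic stem cells (LT-HSCs). GFP is green fluorescent protein, and Mmrn1 encodes multimerin 1, an extracellular matrix protein of platelets and endothelium. The labels do not give age, sex, sorting gate or pooling of animals. Nor do they say that replicates came from separate mice, so each p-value speaks for the variation among these 6 libraries, part or all of which may be technical. Mmrn1 itself was at 5.65, 5.61 and 5.82 CPM in Mmrn1-low and 8.82, 9.80 and 11.5 CPM in Mmrn1-high libraries, listed by replicate number as everywhere below, and higher in each Mmrn1-high library (0.82 ± 0.12 SE, edgeR adjusted p = 4.85e-04).

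Initiation begins when eIF2 carries the initiator transfer RNA to the small ribosomal subunit, where eIF1, eIF1A, eIF5 and the large eIF3 scaffold help it find a start codon. The cap-binding complex eIF4F, made of eIF4E, the RNA helicase eIF4A and the scaffold eIF4G, brings the messenger RNA, and the 4E-BP proteins block its assembly. The exchange factor eIF2B recharges eIF2, and kinases that phosphorylate eIF2 inhibit this step. During elongation, eEF1A delivers aminoacyl transfer RNAs, eEF2 moves the ribosome along, and eIF5A relieves stalls. Adult haematopoietic stem cells are known for a low rate of protein synthesis compared with the progenitors they give rise to.

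The libraries held between 11595104 and 30909990 counts. In cells labelled LT-HSCs, markers of granulocyte progenitors, which make abundant secretory protein, were lower in Mmrn1-high cells for 8 of 8 tested genes. Their summed level lay between 23342 and 24603 CPM in Mmrn1-low and between 3458 and 3531 CPM in Mmrn1-high libraries (CPM are counts relative to the library total, corrected for composition by TMM factors). All 8 markers of cycling cells were lower as well, with summed levels of 2702 to 2724 CPM against 1315 to 1365 CPM. So were all 8 tested tissue macrophage markers, at 149 to 152 CPM against 18.1 to 20.4 CPM. Of 9 markers of long-term stem cells, 8 rose and 0 fell, with summed levels of 76.3 to 87.4 CPM against 196 to 237 CPM. Markers of other mature cells moved in both directions. Of the tested markers, 1 of 8 rose and 4 of 8 fell for plasma cells (829 to 954 against 382 to 424 CPM summed), and 4 of 6 rose and 0 fell for B cells (31.6 to 32.7 against 42.0 to 43.7 CPM summed). For T and natural killer cells 3 of 4 rose and 1 fell, while their summed level was lower (459.6 to 466 against 147 to 150.0 CPM summed), and for erythroid cells 2 of 9 rose and 4 fell (838 to 866 against 613 to 623 CPM summed). No listed marker found in the table was at 0 in every library. The part that these cell types play in the results below was not tested, and in bulk samples fewer cells of a type and less RNA per cell cannot be told apart.

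Under TMM scaling most tested initiation factor genes were lower in Mmrn1-high than in Mmrn1-low cells, while the most abundant elongation factor genes were higher. Of 64 members with enough counts to be tested, 38 were lower in Mmrn1-high cells, 12 were higher and 14 missed the threshold (edgeR quasi-likelihood test, Benjamini-Hochberg adjusted p under 0.05 over all genes tested). Over all 15419 genes tested, 61.2% passed in either direction, 30.7% higher and 30.5% lower. The members' median log2 fold change, Mmrn1-high minus Mmrn1-low, was −0.27, beside 0.01 over all genes tested. None of the 50 called members reached an absolute log2 fold change of 1, a size that 16.2% of all genes tested reached with a call. The median absolute log2 fold change was closer, at 0.33 over tested members and 0.37 over all genes tested. In 53 of the 64 tested members no Mmrn1-high library fell within the Mmrn1-low range or the reverse, beside 67.8% of all genes tested. Tested members had a median level of 154 CPM, beside 24.1 CPM over all genes tested. Higher counts make both a call and a lack of overlap easier to reach, and the shares over all genes were not matched for level. Scaling by library size alone shifted the log2 fold changes of all genes upwards, by 0.15 at the median, which gave 17 higher and 28 lower members with a median of −0.13. Small changes in either direction therefore rest on the scaling.

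**Figure D1:**
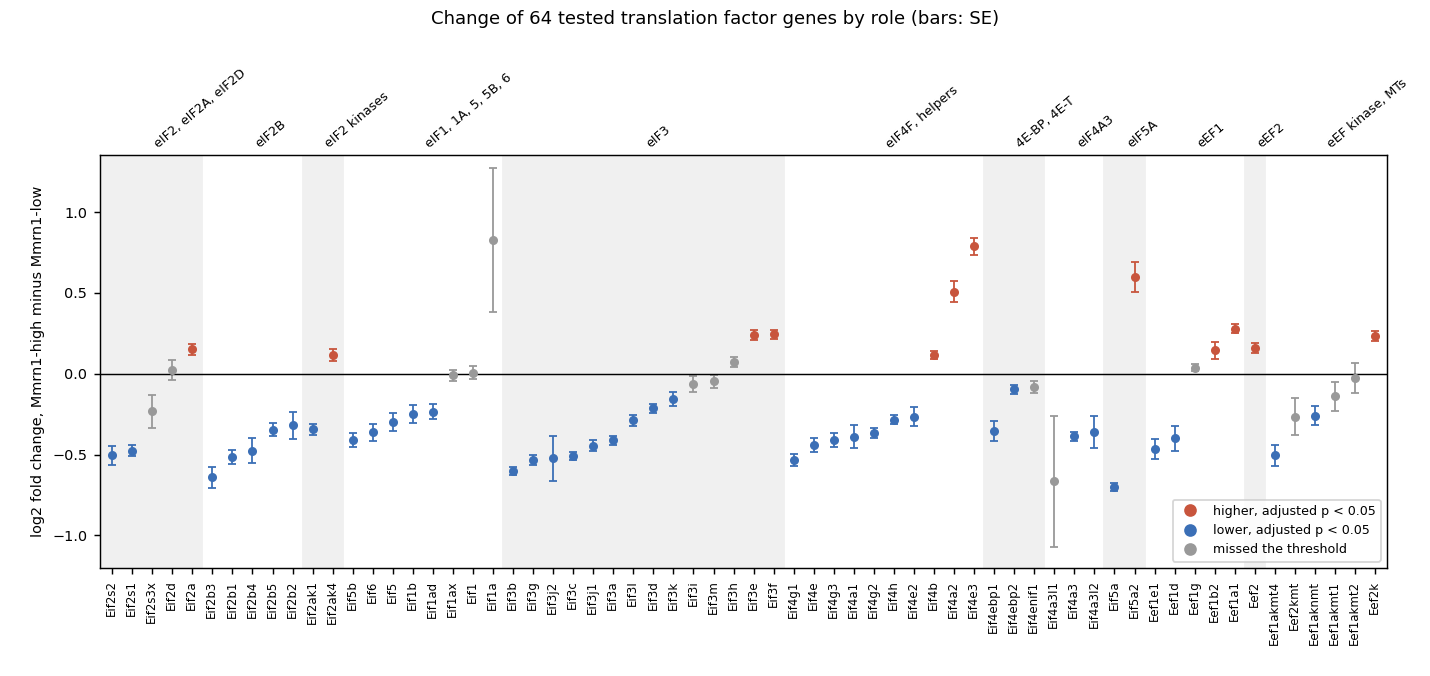
Log2 fold change with its standard error for each of the 64 tested genes, grouped by role, with genes higher in Mmrn1-high cells in red, lower in blue and those that missed the threshold in grey. All 5 eIF2B genes lie below 0, whereas Eef1a1, Eef1b2 and Eef2 lie above it, and Eif1a and Eif4a3l1 have the widest bars.

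The members were divided between the names that begin with Eif and those that begin with Eef, called initiation and elongation genes here. The division is by name alone. The Eif names include Eif5a, which acts during elongation and had the largest called fall, and Eif4a3, which is not of initiation. Under TMM scaling 30.5% of all genes tested fell and 30.7% rose. Of 52 tested Eif genes, 34 fell and 8 rose in Mmrn1-high cells, for a median of −0.31 (25 fell and 12 rose with library size alone, for a median of −0.16). Of 12 tested Eef genes, 4 fell and 4 rose, and their median was −0.08 that turned to 0.07 with library size alone. Their shares of a library use no TMM factors, so they carry the upward shift of 0.15 at the median that library size alone gave over all genes. Elongation genes took 1.22, 1.22 and 1.22% of all counts in Mmrn1-low and 1.56, 1.54 and 1.59% in Mmrn1-high libraries. Initiation genes took 1.40, 1.41 and 1.43% and 1.28, 1.30 and 1.28%, in the same order. The first share was larger and the second smaller in every Mmrn1-high library than in any Mmrn1-low library. Under TMM scaling the elongation genes summed to 12804 to 12943 CPM in Mmrn1-low and 14640 to 15123 CPM in Mmrn1-high libraries. The initiation genes summed to 14807 to 15012 CPM and 12158 to 12380 CPM, in the same order. The ratio of elongation to initiation counts was 0.863 ± 0.0107 in Mmrn1-low and 1.21 ± 0.0275 in Mmrn1-high cells (SD, n = 3, exact two-sided permutation p = 0.1, the smallest that 3 against 3 allows). Eef1a1 and Eef2 hold most of the counts of the elongation genes. Without Eef1a1 the ratio ranged from 0.387 to 0.407 in Mmrn1-low and from 0.521 to 0.532 in Mmrn1-high libraries. With Eef2 left out too, it ranged from 0.107 to 0.109 and from 0.132 to 0.133, still without overlap. The ratio was not formed with Eif5a moved to the elongation genes.

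**Figure D2:**
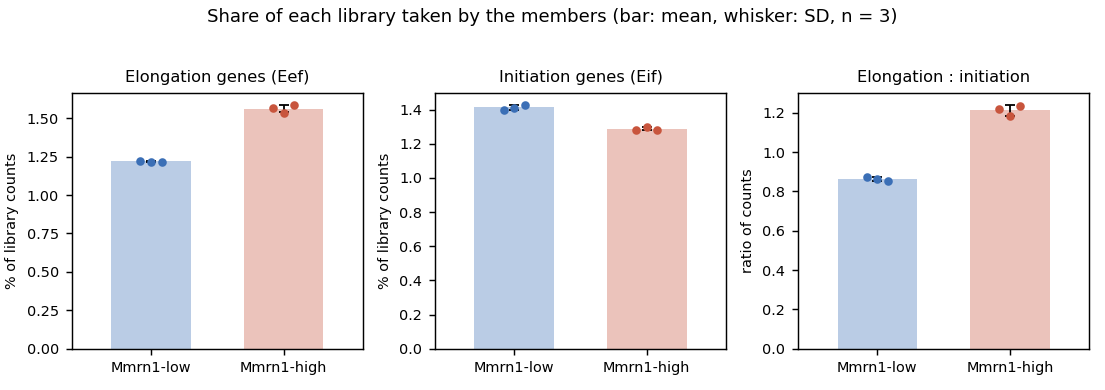
Percent of each library's counts taken by elongation genes (Eef names) and by initiation genes (Eif names, Eif5a included), and the ratio of both sums. Points are libraries, bars lie at the mean and whiskers are 1 SD (n = 3). The ratio lies between 0.853 and 0.874 in the Mmrn1-low libraries and between 1.18 and 1.24 in the Mmrn1-high libraries.

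By level per gene length, the authors' FPKM (fragments per kilobase of transcript, scaled to the depth of the library), the elongation factors stood at the top of the members. Eef1a1 had a mean of 1378 FPKM over the 6 libraries and Eef2 of 1075 FPKM. Eif5a followed with 285, Eef1g with 209, Eif4b with 191 and Eif3b with 161 FPKM. The median over the 64 tested members was 26.9 FPKM, and the lowest of them, Eif4a3l1, had 0.312 FPKM. Another 5 members had too few counts to be tested. Eef1a2, the eEF1A of muscle and neurons, and Eif4e1b, an oocyte form of eIF4E, had no count in any library, nor had Eif2c5. A count of 3, the limit that a count of 0 allows, corresponds to between 0.0925 and 0.245 CPM here, for counting error only. Eef1akmt3, a methyltransferase of eEF1A, had 2 to 11 counts and Eif4ebp3, the third 4E-BP, 3 to 13 counts per library.

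**Figure D3:**
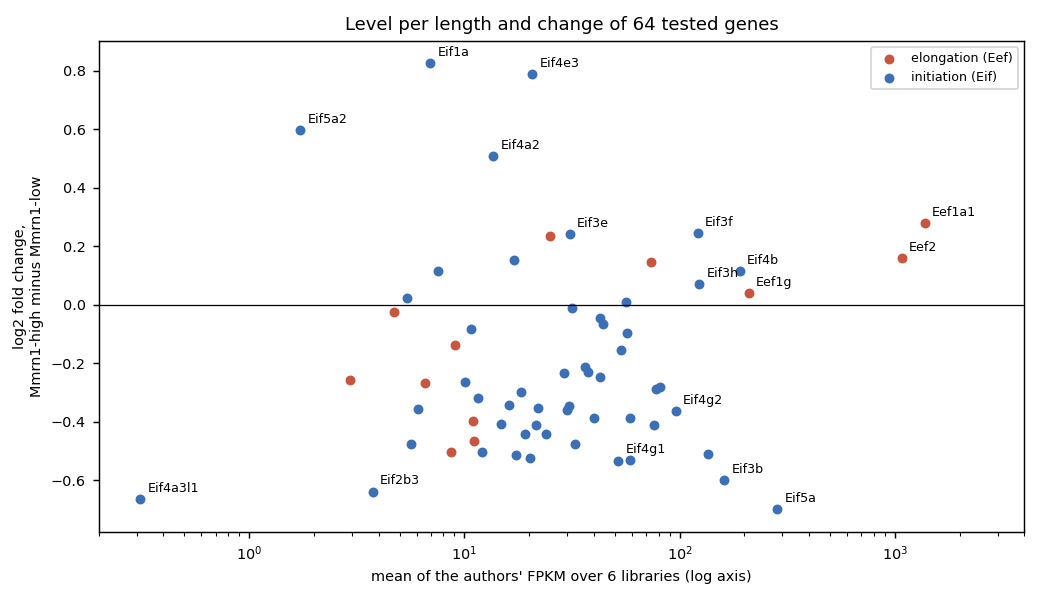
Mean FPKM over the 6 libraries (log axis) against the log2 fold change for the 64 tested genes, with elongation names in red and initiation names in blue. Eef1a1 and Eef2 sit at the far right above 0, and Eif5a, the next highest, is the lowest called gene at −0.70.

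The search of promoter sequence did not use the expression values, although the motif was picked after they had been seen. CACGTG, the E-box bound by Myc and other basic helix-loop-helix proteins and its own reverse complement, was searched in RefSeq promoters of GRCm38.p6, from 250 bases before to 50 after the annotated start. Of the 52 members with an entry, 14 held it, 26.9%, beside 11.7% of the 10232 tested genes with an entry and 8.10% of all 27025 genes. It occurred in 10 of 31 lower members and in 4 of 10 higher members, and in 0 of 9 that missed the threshold. These groups are small, and the same split was not made for all tested genes, so no link to the calls is drawn. All 3 core eIF4F genes, Eif4e, Eif4a1 and Eif4g1, held it. The stretches below lie before an annotated RefSeq start, overlap no exon of GENCODE M21, are written in the gene's direction and show the E-box in capitals. They are given for 3 genes that fell and 3 that rose, including both eIF5A genes. Those of Eif4g1 and Eif5a lie within the span of the GENCODE gene, before a RefSeq start inside it.
Eif4a1 (GRCm38.p6, chr11:69672572-69672647, minus strand): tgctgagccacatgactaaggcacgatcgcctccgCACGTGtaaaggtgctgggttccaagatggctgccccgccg
Eif4g1 (GRCm38.p6, chr16:20672638-20672713, plus strand): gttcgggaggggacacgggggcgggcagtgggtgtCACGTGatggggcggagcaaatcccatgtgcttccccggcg
Eif5a (GRCm38.p6, chr11:69921420-69921495, minus strand): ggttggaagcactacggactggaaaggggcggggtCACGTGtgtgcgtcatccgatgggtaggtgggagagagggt
Eif5a2 (GRCm38.p6, chr3:28781125-28781200, plus strand): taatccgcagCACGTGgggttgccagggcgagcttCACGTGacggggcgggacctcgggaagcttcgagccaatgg
Eef2 (GRCm38.p6, chr10:81176553-81176628, plus strand): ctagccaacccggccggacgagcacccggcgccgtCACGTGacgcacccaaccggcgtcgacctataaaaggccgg
Eif3f (GRCm38.p6, chr7:108934312-108934387, plus strand): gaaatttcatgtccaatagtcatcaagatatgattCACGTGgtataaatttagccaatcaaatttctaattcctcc
The first base of the printed E-box lay 189 bases before the start in Eif4a1, 54 in Eif4g1, 43 in Eef2 and 68 in Eif3f. In Eif5a, for which RefSeq lists several starts, it lay 74 bases before 1 of them, and another E-box, not printed, lay 178 bases before another start. Eif4g1 has another copy after its start, at base 16. Eif5a2 has 2 copies, 142 and 117 bases before the start. A match in the letters does not show that a factor binds there.

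Of the 3 subunits of eIF2, 2 fell in Mmrn1-high cells and the other missed the threshold. Eif2s1, the alpha subunit that carries the regulatory phosphorylation site (chr12:78861819-78887010, on GRCm38 as for all genes below), was at 191, 200.2 and 200.2 CPM in Mmrn1-low and 140.1, 145 and 139 CPM in Mmrn1-high libraries. The groups lay far apart relative to their spread, with a log2 fold change of −0.48 ± 0.03 SE (edgeR adjusted p = 7.73e-06). Eif2s2, the beta subunit, was at 181, 184 and 173 CPM in Mmrn1-low and 129, 135 and 116 CPM in Mmrn1-high libraries, also without overlap (−0.50 ± 0.06 SE, edgeR adjusted p = 1.23e-04). The X-linked gamma subunit gene Eif2s3x, which binds GTP and the initiator transfer RNA, missed the threshold at −0.23 ± 0.10 SE (edgeR adjusted p = 0.0989). It passed with DESeq2 (adjusted p = 0.0429) and without Mmrn1-high replicate 2 (edgeR adjusted p = 0.0352). For this gene 33.7% of its 100-base windows also occur in the pseudogene Gm2223. Eif2a, which can deliver initiator transfer RNA outside the main route, rose slightly from 131 ± 1.29 to 145 ± 5.10 CPM (SD, n = 3; 0.15 ± 0.04 SE, edgeR adjusted p = 0.00608), and Eif2d was at 0.02 ± 0.06 SE and missed the threshold, but passed as higher with library size alone (0.17, edgeR adjusted p = 0.0383).

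All 5 eIF2B genes fell, beside 30.5% of all genes tested. Their log2 fold changes lay between −0.64 and −0.32, with a median of −0.48 (−0.33 with library size alone). The call of Eif2b2 was lost with that scaling (edgeR adjusted p = 0.116). Eif2b3, the gamma subunit, had the largest fall, at 34.9, 34.5 and 36.2 CPM in Mmrn1-low and 22.0, 24.1 and 21.6 CPM in Mmrn1-high libraries. That is 1.56-fold lower in Mmrn1-high cells (−0.64 ± 0.07 SE, edgeR adjusted p = 6.50e-05). Eif2b5, the catalytic epsilon subunit and the one with the highest FPKM, was at 106, 111 and 113 CPM in Mmrn1-low and 89.1, 84.0 and 87.2 CPM in Mmrn1-high libraries. It was lower in every Mmrn1-high library than in any Mmrn1-low library (−0.35 ± 0.04 SE, edgeR adjusted p = 1.59e-04).

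The 2 eIF2 kinase genes in the set moved in opposite directions. Eif2ak1, the haem-regulated kinase of erythroid cells, was at 111, 110.3 and 112 CPM in Mmrn1-low and 85.5, 87.2 and 90.0 CPM in Mmrn1-high libraries, a fall of the whole group (−0.34 ± 0.04 SE, edgeR adjusted p = 6.74e-05). Eif2ak4, which encodes the amino acid sensor GCN2, was at 62.0, 63.2 and 63.1 CPM in Mmrn1-low and 68.5, 67.7 and 67.9 CPM in Mmrn1-high libraries. Its rise was small (0.12 ± 0.04 SE, edgeR adjusted p = 0.0306). The call was lost with DESeq2 (adjusted p = 0.24), without a filter on low counts (edgeR adjusted p = 0.0914), and without Mmrn1-low replicate 1, 2 or 3 or Mmrn1-high replicate 3 (edgeR adjusted p = 0.0592, 0.0608, 0.0534 and 0.074). Of the kinases outside the set, Eif2ak3, the sensor PERK of the endoplasmic reticulum, fell from 48.4 ± 0.718 to 31.3 ± 2.16 CPM (SD, n = 3; −0.63 ± 0.06 SE, edgeR adjusted p = 5.61e-05). The double-stranded RNA sensor gene Eif2ak2 was at −0.02 ± 0.04 SE and missed the threshold (edgeR adjusted p = 0.738), but was higher with library size alone (0.13, 0.0258).

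Among the genes named for eIF1, eIF1A, eIF5, eIF5B and eIF6, 5 of 8 fell and 0 rose, with a median of −0.24. The shares over all genes tested were 30.5% lower and 30.7% higher. With library size alone the median was −0.09, 3 fell and 2 rose. Eif5b, the subunit-joining GTPase, was at 275, 271 and 284 CPM in Mmrn1-low and 207, 219.8 and 198 CPM in Mmrn1-high libraries, a fall without overlap (−0.41 ± 0.04 SE, edgeR adjusted p = 6.78e-05). Eif5, the GTPase activator of eIF2, fell too (−0.30 ± 0.05 SE), as did Eif6, which keeps the large subunit apart from the small one (−0.36 ± 0.05 SE). Eif1b (−0.25 ± 0.06 SE) and Eif1ad (−0.23 ± 0.05 SE) fell as well, though library size scaling left them at edgeR adjusted p = 0.17 and 0.137. Eif1, which guards against wrong start codons and had the highest FPKM of these genes, was at 194, 178 and 189 CPM in Mmrn1-low and 183, 196 and 185 CPM in Mmrn1-high libraries. Those groups overlapped and the difference was 0.01 ± 0.04 SE (edgeR adjusted p = 0.889), though Eif1 passed as higher with library size alone (0.16, 0.012). Eif1ax, the X-linked eIF1A gene, was also near 0, at −0.01 ± 0.03 SE (edgeR adjusted p = 0.821), and passed as higher with library size alone (0.14, 0.00885). Eif1a, its autosomal relative, varied most within a group, at 51.2, 52.2 and 54.5 CPM in Mmrn1-low and 87.5, 47.9 and 146 CPM in Mmrn1-high libraries. The Mmrn1-low libraries were alike and the Mmrn1-high libraries ranged from below them to far above (0.83 ± 0.45 SE, edgeR adjusted p = 0.179). Without Mmrn1-high replicate 2 the log2 fold change was 1.17 with an edgeR adjusted p of 0.0212.

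The eIF3 scaffold did not move as a block. Of its 14 genes, 9 fell, 2 rose and 3 missed the threshold, with a median of −0.25 and a range from −0.60 to 0.24. Over all genes tested, 30.5% fell and 30.7% rose. With library size alone 6 fell and 3 rose, with a median of −0.10. Eif3b, an RNA-binding scaffold subunit (chr5:140419328-140443360) with the highest FPKM of the complex and the largest fall, was at 698, 690.1 and 718 CPM in Mmrn1-low and 454, 468 and 467 CPM in Mmrn1-high libraries. That is 1.52-fold lower in Mmrn1-high cells, with no overlap (−0.60 ± 0.03 SE, edgeR adjusted p = 6.58e-07). Its partner Eif3g was at 192, 188 and 194 CPM in Mmrn1-low and 131, 134 and 131 CPM in Mmrn1-high libraries, and Eif3c, which binds eIF1 and eIF5, at 619.6, 624 and 641 CPM in Mmrn1-low and 439.8, 449.6 and 435 CPM in Mmrn1-high libraries. Both fell without overlap, by 0.53 ± 0.03 SE and 0.51 ± 0.03 SE on the log2 scale (edgeR adjusted p = 2.04e-06 and 1.44e-06). Eif3a, the largest subunit (−0.41 ± 0.03 SE), Eif3l (−0.29 ± 0.04 SE) and the cap-contacting Eif3d (−0.21 ± 0.03 SE) fell as well. The call of Eif3d was lost with library size alone (edgeR adjusted p = 0.0694). Eif3d shares 43.3% of its exon bases with Gm17638 on the other strand, and its value may hold reads of that gene. The same applies to 5 other members with over 10% of their exon bases under a gene on the other strand. That share was 19.0% for Eif3j1 (Spg11), 17.6% for Eef2kmt (Alg1), 16.8% for Eif5b (Rev1), 15.3% for Eif1ad (Banf1) and 12.7% for Eif1b (D830035M03Rik).

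The eIF3 subunits that rose were Eif3e and Eif3f. Eif3f, one of a pair of subunits with an MPN domain (chr7:108934417-108942951), was at 384, 401 and 391 CPM in Mmrn1-low and 462, 462 and 469 CPM in Mmrn1-high libraries. Eif3e, a PCI-domain subunit, was at 203, 211 and 210.1 CPM in Mmrn1-low and 248, 249 and 240.1 CPM in Mmrn1-high libraries. Each was higher in every Mmrn1-high library than in any Mmrn1-low library (0.24 ± 0.03 SE, edgeR adjusted p = 9.85e-05, and 0.24 ± 0.03 SE, edgeR adjusted p = 2.16e-04). Eif3h, the other MPN subunit, also had groups that did not overlap, but its difference of 0.07 ± 0.03 SE missed the threshold (edgeR adjusted p = 0.0862; 4.04e-04 with library size alone). Eif3m and Eif3i missed it too (−0.05 ± 0.04 SE and −0.07 ± 0.05 SE). The small fall of Eif3k (−0.16 ± 0.04 SE, edgeR adjusted p = 0.0132) was lost without Mmrn1-low replicate 1 or 3 or Mmrn1-high replicate 2 (edgeR adjusted p = 0.0661, 0.0703 and 0.0727) and with library size alone (−0.01, 0.907). The loosely bound eIF3j has 2 near-identical genes in the mouse, and 84.0% of the 100-base windows of Eif3j2 also occur in Eif3j1. Their values of −0.44 ± 0.03 SE and −0.52 ± 0.14 SE therefore cannot be assigned to either gene with certainty, and the call of Eif3j2 was lost without Mmrn1-high replicate 1 (edgeR adjusted p = 0.0689), with library size alone (0.061) and without a filter on low counts (0.0693).

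All 3 core genes of the cap-binding complex eIF4F fell, under TMM scaling and with library size alone. Eif4g1, the main scaffold (chr16:20668313-20692884), was at 855, 814 and 851 CPM in Mmrn1-low and 603, 561 and 578 CPM in Mmrn1-high libraries. Eif4e, the cap-binding protein (chr3:138526179-138559696), was at 147, 159 and 156 CPM in Mmrn1-low and 118, 113 and 110.1 CPM in Mmrn1-high libraries. Eif4a1, the main helicase (chr11:69666936-69672423), was at 403, 425 and 457 CPM in Mmrn1-low and 324, 355 and 303 CPM in Mmrn1-high libraries. In each of the 3 genes every Mmrn1-high library lay below every Mmrn1-low library. The log2 fold changes were −0.53 ± 0.03 SE (edgeR adjusted p = 4.58e-06) for Eif4g1, −0.44 ± 0.04 SE (edgeR adjusted p = 4.74e-05) for Eif4e and −0.39 ± 0.07 SE (edgeR adjusted p = 0.00307) for Eif4a1. Of the 100-base windows of Eif4a1, 22.6% also occur in other genes, mainly the pseudogene Eif4a-ps4. The other scaffold genes fell too: Eif4g3 by 0.41 ± 0.04 SE and Eif4g2, a relative that lacks the eIF4E-binding part, by 0.36 ± 0.03 SE on the log2 scale. Eif4h, a helper of the helicase, fell (−0.28 ± 0.03 SE). Eif4e2, a cap-binding relative linked to repression, fell by 0.26 ± 0.06 SE, and its call was lost with library size alone (edgeR adjusted p = 0.111).

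In the same group 3 genes rose: Eif4b, Eif4a2 and Eif4e3. Eif4b, the other helper of the helicase and the gene of this group with the highest FPKM, was at 996, 953 and 971 CPM in Mmrn1-low and 1047, 1060.2 and 1055 CPM in Mmrn1-high libraries. Its rise was small but clear of the spread (0.12 ± 0.03 SE, edgeR adjusted p = 0.00454). Eif4a2, the second helicase, was at 169, 176 and 171 CPM in Mmrn1-low and 235, 271 and 227 CPM in Mmrn1-high libraries, and Eif4e3, another cap-binding protein, at 36.2, 39.5 and 37.3 CPM in Mmrn1-low and 67.2, 65.3 and 62.6 CPM in Mmrn1-high libraries. Every Mmrn1-high library lay above every Mmrn1-low library for both genes. Eif4a2 was 1.42-fold higher (0.51 ± 0.07 SE, edgeR adjusted p = 4.21e-04) and Eif4e3 1.73-fold higher (0.79 ± 0.05 SE, edgeR adjusted p = 6.38e-06), the largest called rise among the members. Eif4e3 shares 14.8% of its exon bases with the overlapping gene model Gm20696 on the same strand.

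**Figure D4:**
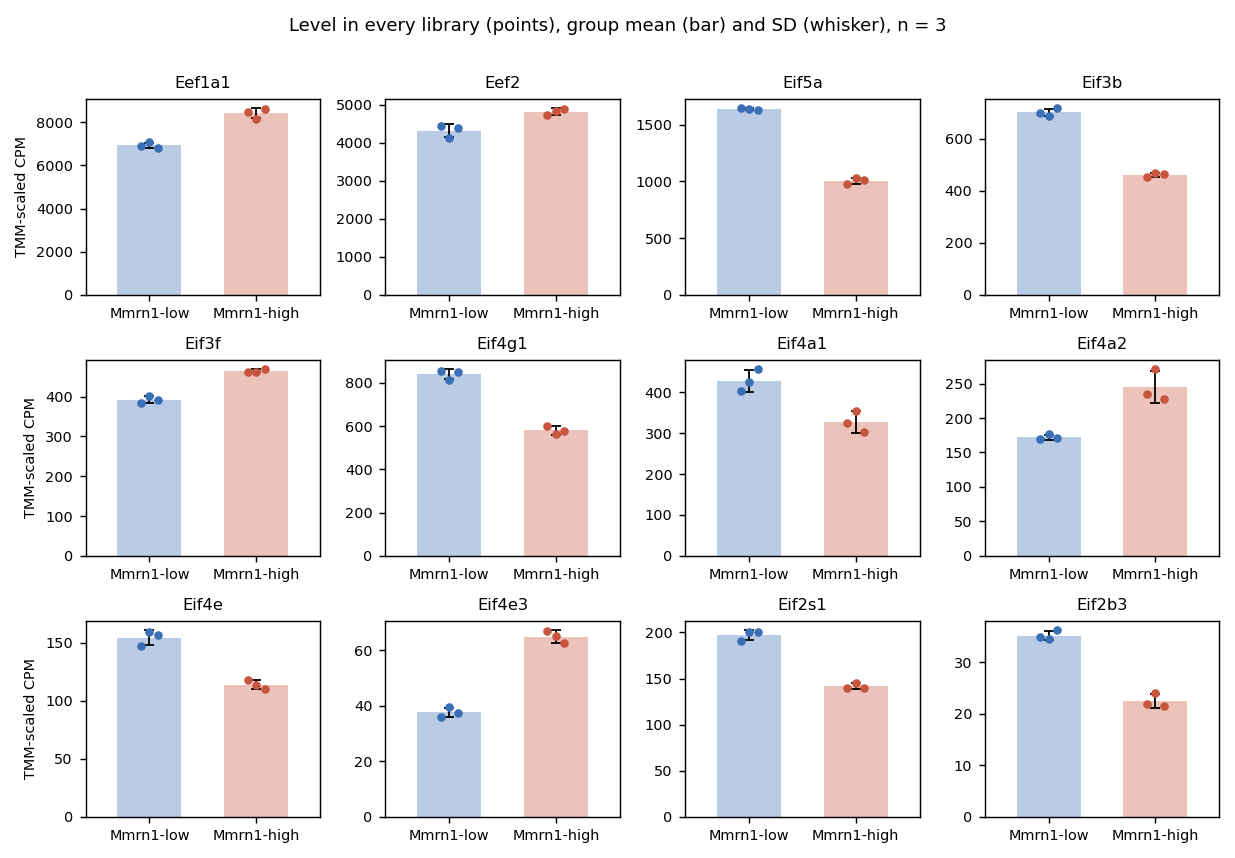
TMM-scaled CPM of 12 members, with a point for each library, bars at the mean and whiskers of 1 SD (n = 3); the axes start at 0 and differ between panels. Eif4a1 and Eif4e are lower, and Eif4a2 and Eif4e3 higher, in each Mmrn1-high library than in any Mmrn1-low library.

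Both tested 4E-BP genes, which encode repressors of eIF4E, were lower in Mmrn1-high cells under TMM scaling, and Eif4ebp2 turned with library size alone. Eif4ebp1 (chr8:27260329-27276674) was at 65.0, 64.1 and 65.6 CPM in Mmrn1-low and 51.5, 54.3 and 46.6 CPM in Mmrn1-high libraries, a fall without overlap (−0.35 ± 0.06 SE, edgeR adjusted p = 0.0013). Eif4ebp2, which had the higher FPKM (56.9 against 22.0), was at 407, 424 and 411 CPM in Mmrn1-low and 376, 395 and 390.1 CPM in Mmrn1-high libraries. Its difference of −0.10 ± 0.03 SE passed the threshold (edgeR adjusted p = 0.0233) but turned to 0.05 with library size alone, and the call was lost without Mmrn1-low replicate 2 or Mmrn1-high replicate 1 or 2 (edgeR adjusted p = 0.0592, 0.135 and 0.0509) and without a filter on low counts (0.137). Eif4enif1, which encodes the eIF4E transporter, missed the threshold at −0.08 ± 0.04 SE (edgeR adjusted p = 0.0754; 0.0436 without Mmrn1-high replicate 3). Eif4a3, a helicase of the exon junction complex and not of initiation, was at 229, 225 and 230.1 CPM in Mmrn1-low and 172, 176 and 174 CPM in Mmrn1-high libraries and fell (−0.39 ± 0.03 SE, edgeR adjusted p = 8.00e-06). Its copies Eif4a3l1 (−0.67 ± 0.41 SE, missed) and Eif4a3l2 (−0.36 ± 0.10 SE) share 28.0% and 31.6% of their windows with other genes and are uncertain, and the call of Eif4a3l2 was lost without Mmrn1-high replicate 2 (edgeR adjusted p = 0.0568), with library size alone (0.104) and with DESeq2 (adjusted p = 0.0636).

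The eIF5A genes moved apart. Eif5a, the common form, which carries the amino acid hypusine (chr11:69916714-69921958), was at 1644, 1636 and 1626 CPM in Mmrn1-low and 979, 1031 and 1011 CPM in Mmrn1-high libraries. This was 1.62-fold lower in Mmrn1-high cells and the largest called fall among the members (−0.70 ± 0.03 SE, edgeR adjusted p = 2.45e-07). Eif5a2, the second gene, was at 6.66, 6.57 and 7.32 CPM in Mmrn1-low and 10.1, 10.7 and 10.3 CPM in Mmrn1-high libraries, higher in every Mmrn1-high library (0.60 ± 0.09 SE, edgeR adjusted p = 7.12e-04). Even so it stayed far below Eif5a per length, at 1.73 against 285 FPKM. The enzymes that make hypusine, Dohh and Dhps, also fell, from 72.3 ± 8.42 to 45.1 ± 3.90 CPM and from 26.9 ± 1.28 to 20.8 ± 1.14 CPM (SD, n = 3; −0.68 ± 0.10 SE, edgeR adjusted p = 6.74e-04, and −0.37 ± 0.07 SE, edgeR adjusted p = 0.00212).

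The factors that work during elongation included the 2 most abundant members. Eef1a1 (chr9:78478449-78489151), which brings aminoacyl transfer RNA to the ribosome, was at 6918, 7065 and 6823 CPM in Mmrn1-low and 8480.2, 8163 and 8614 CPM in Mmrn1-high libraries. Eef2, the translocase (chr10:81176631-81182498), was at 4441, 4127 and 4377 CPM in Mmrn1-low and 4717, 4842 and 4884 CPM in Mmrn1-high libraries. Both rose without overlap, Eef1a1 1.21-fold (0.28 ± 0.03 SE, edgeR adjusted p = 4.79e-05) and Eef2 1.12-fold (0.16 ± 0.03 SE, edgeR adjusted p = 0.00296). Of the windows of Eef1a1, 16.3% occur in other genes, mainly processed pseudogenes. The exchange factor subunits of eEF1 did not follow together. Eef1b2 was at 0.15 ± 0.05 SE (edgeR adjusted p = 0.0448), a call lost with DESeq2 (adjusted p = 0.0657) and without any 1 library other than Mmrn1-low replicate 2 (edgeR adjusted p = 0.0812 to 0.089). Eef1g was at 0.04 ± 0.02 SE and missed the threshold (edgeR adjusted p = 0.198; 2.44e-04 with library size alone), with 32.4% of its windows in other genes. Eef1d fell from 165 ± 18.1 to 125 ± 2.77 CPM (SD, n = 3; −0.40 ± 0.08 SE, edgeR adjusted p = 0.00371). Eef1e1, named for eEF1 but a scaffold of the aminoacyl-tRNA synthetase complex, was at 48.5, 48.1 and 48.4 CPM in Mmrn1-low and 32.3, 35.9 and 36.7 CPM in Mmrn1-high libraries, a fall without overlap (−0.46 ± 0.06 SE, edgeR adjusted p = 2.65e-04).

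Among the enzymes that modify elongation factors, Eef2k, the kinase that inhibits eEF2, was at 221, 229.6 and 217 CPM in Mmrn1-low and 254, 268 and 261 CPM in Mmrn1-high libraries. It rose beside its substrate gene (0.23 ± 0.03 SE, edgeR adjusted p = 4.85e-04). Eef1akmt4, a lysine methyltransferase of eEF1A, was at 26.8, 25.4 and 27.7 CPM in Mmrn1-low and 18.5, 19.1 and 18.8 CPM in Mmrn1-high libraries and fell (−0.50 ± 0.06 SE, edgeR adjusted p = 2.28e-04), but 24.8% of its windows belong also to the overlapping model Gm49333. Eef1aknmt, which methylates eEF1A as well, fell (−0.26 ± 0.06 SE), a call lost with library size alone (edgeR adjusted p = 0.15). Eef1akmt1, Eef1akmt2 and Eef2kmt missed the threshold, at −0.14 ± 0.09 SE, −0.03 ± 0.09 SE and −0.27 ± 0.11 SE. Without Mmrn1-low replicate 2, Eef2kmt passed it (edgeR adjusted p = 0.00695).

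Count ratios within a library, which do not depend on scaling, were compared for 11 pairs of related genes. Another pair, Eef1a2 to Eef1a1, had no counts for Eef1a2. With 3 libraries against 3 the smallest exact two-sided permutation p is 0.1, so no pair could pass 0.05, and a pair was read by whether its groups overlap. Groups did not overlap in CPM for 67.8% of all genes tested, so a lack of overlap is common in these data. No such share was computed for ratios of other genes. The ratio of Eif4a2 to Eif4a1 was 0.420, 0.415 and 0.374 in Mmrn1-low and 0.726, 0.763 and 0.750 in Mmrn1-high libraries. It was 1.85-fold higher in Mmrn1-high cells, a log2 difference of 0.89, from −1.31 ± 0.09 to −0.42 ± 0.04 (SD, n = 3, exact permutation p = 0.1, adjusted over the pairs 0.157). The ratio of Eif4e3 to Eif4e was 0.246, 0.248 and 0.239 in Mmrn1-low and 0.569, 0.577 and 0.569 in Mmrn1-high libraries. It differed by 1.23 on the log2 scale, 2.34-fold, with the same p-values. For Eif5a2 to Eif5a the ratio was 0.00405, 0.00401 and 0.00450 in Mmrn1-low and 0.0104, 0.0104 and 0.0102 in Mmrn1-high libraries, a log2 difference of 1.30 or 2.47-fold, again with the same p-values. In these 3 pairs the ratio was higher in every Mmrn1-high library than in any Mmrn1-low library. Per length, by the authors' FPKM, the ratio of Eif4e3 to Eif4e was 0.681, 0.688 and 0.662 in Mmrn1-low and 1.58, 1.60 and 1.58 in Mmrn1-high libraries. By FPKM, Eif4e3 thus had the lower level of the pair in the former and the higher level in the latter. By counts it stayed below Eif4e in every library, so this change of order rests on the gene lengths used for the FPKM.

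Smaller shifts without overlap were found for Eif4ebp2 to Eif4ebp1 (log2 difference 0.26), Eif4g2 to Eif4g1 (0.17), Eif4g3 to Eif4g1 (0.12) and Eif1b to Eif1 (−0.25), each with an exact permutation p of 0.1. The ratio of Eif4g3 to Eif4g1 was barely apart, at most 0.297 in Mmrn1-low and at least 0.301 in Mmrn1-high libraries. The other pairs overlapped between the groups. They were Eif4e2 to Eif4e (0.18, exact permutation p = 0.2), Eif4ebp1 to Eif4e (0.08, 0.4), Eif3j2 to Eif3j1 (−0.08, 0.6) and Eif4a3 to Eif4a1 (0.0022, 0.9).

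**Figure D5:**
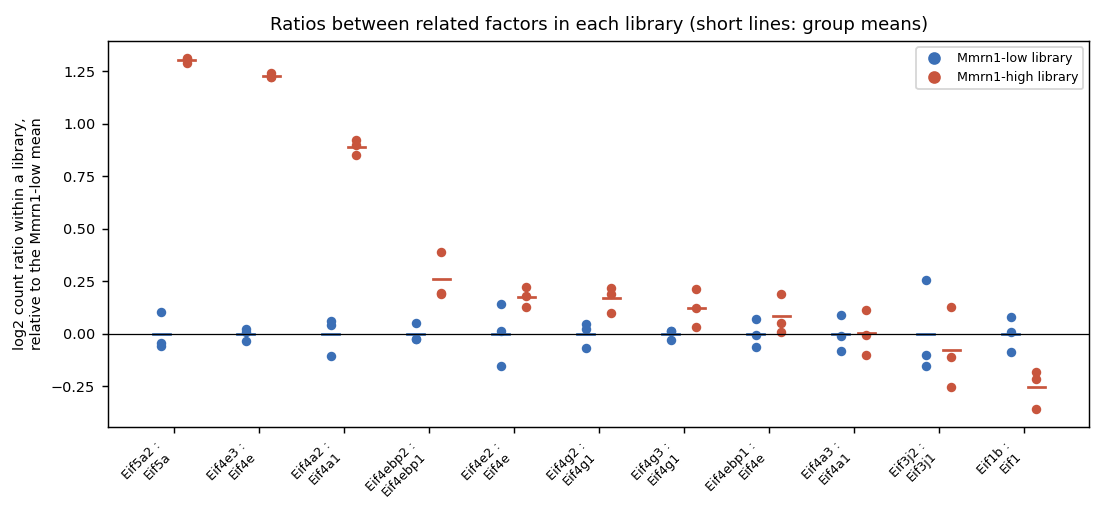
Log2 count ratio of 11 gene pairs in each library, relative to the Mmrn1-low mean of the pair, with short lines at the group means. The Mmrn1-high libraries lie 0.89 to 1.30 above the Mmrn1-low mean, on average, for Eif4a2 to Eif4a1, Eif4e3 to Eif4e and Eif5a2 to Eif5a.

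Other genes of translation and its control were taken from a list of 58, of which 57 were found and tested. Of these, 33 fell, 9 rose and 15 missed the threshold, beside 30.5% lower and 30.7% higher over all genes tested. Their median log2 fold change was −0.20. With library size alone 24 fell and 15 rose. Pdcd4, which inhibits the eIF4A helicase, fell from 336 ± 13.0 to 199.5 ± 2.38 CPM (SD, n = 3; −0.75 ± 0.03 SE, edgeR adjusted p = 6.96e-07). Dhx29, a helicase for structured leaders, fell too (−0.70 ± 0.05 SE), as did Larp1, which binds messenger RNAs with a terminal oligopyrimidine tract (−0.62 ± 0.02 SE). Of 14 genes listed for mTOR signalling and control, 7 fell, 2 rose and 5 missed the threshold, beside the same shares over all genes tested. That list also held Pdcd4 and Larp1, so their falls are counted in it. Rptor, of the complex that controls the 4E-BPs, fell (−0.35 ± 0.04 SE) and Rictor, of the other mTOR complex, rose (0.47 ± 0.06 SE). Mtor itself fell from 86.7 ± 1.06 to 72.9 ± 1.87 CPM (−0.25 ± 0.04 SE, edgeR adjusted p = 6.58e-04), a call that library size alone left at an edgeR adjusted p of 0.0505. Mknk1 and Mknk2, the kinases of eIF4E, missed the threshold at 0.07 ± 0.05 SE and −0.02 ± 0.03 SE, and both passed as higher with library size alone (edgeR adjusted p = 0.00799 and 0.00517). The partners of the phosphatase that reverses eIF2 phosphorylation moved apart: the constitutive Ppp1r15b fell from 276 ± 1.08 to 189 ± 1.40 CPM (−0.54 ± 0.03 SE, edgeR adjusted p = 7.61e-07), and the stress-induced Ppp1r15a rose from 35.9 ± 7.35 to 95.1 ± 27.8 CPM (1.40 ± 0.27 SE, edgeR adjusted p = 0.00915).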

How the data were processed

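RNA was measured in 6 poly-A selected, stranded, paired-end libraries, per the labels' protocols. The deposited table gives raw counts per gene and the authors' FPKM, per the file headers. The build GRCm38 and the tools HISAT2, StringTie, CASAVA 1.8 and edgeR appear in the submitters' processing notes without a role or order. No source used here states the strand setting of the counting, so reads in overlapping antisense genes cannot be told apart. The deposited FPKM values were used without a test, to compare levels between genes.

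Counts were tested over all genes with edgeR 4.0.16 (R 4.3.3): its robust quasi-likelihood F test, scaling factors by TMM, the filterByExpr rule (15419 genes left) and the group as the only term. Log2 fold changes are given as Mmrn1-high over Mmrn1-low, and the SE is their size over the square root of F. The procedure was also run on simulated counts in which few genes changed, so that run does not check the scaling in these data. Groups come from the sample titles. Count ratios of pairs needed at least 10 counts of both genes in every library. Named genes were, in each role group, the called member with the largest change and the one with the highest FPKM, the 6 largest called rises and falls at or above the median CPM of tested members, and the paired genes. The remaining members are named for completeness, and other translation genes for their role, with values known. The members, lists and pairs were chosen with earlier results of these data known, and the E-box after values had been seen. Gene models of GENCODE M21 (GRCm38) gave exon overlap, and its transcripts the windows of 100 bases shared with other genes. All 69 members had the same coordinates there. As alternatives, the scaling was changed to relative log expression or to library size alone, the filter was dropped, and the runs were repeated with DESeq2 1.42.0, a replicate block, protein-coding genes alone, an adjusted p under 0.01 and leaving out each library.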

Additional observations from a re-analysis of the deposited data

How the results depend on the processing

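With a library left out, 47 to 49 members were called, 10 to 12 higher and 36 to 39 lower, and the median ranged from −0.29 to −0.25. The other translation genes then gave 37 to 40 calls, 8 to 9 higher and 29 to 32 lower. DESeq2 called 48 members, 10 higher and 38 lower. Of the 50 called members, 38 kept their direction and call under every alternative run and 44 with each library left out. Without the 11 members that share over 10% of their windows with another gene, an alternative added after seeing the data, 44 were called, 11 higher and 33 lower. Library size alone was the alternative that moved most: the median became −0.13 and 15 of the other translation genes were higher. Eif4ebp2 (0.0516) was the called member that reversed there. Members that had missed the threshold changed sign there too: Eef1akmt2 0.12, Eef1akmt1 0.00884, Eif3m 0.10, Eif4enif1 0.0661, Eif1ax 0.14 (edgeR adjusted p = 0.00885) and Eif3i 0.0837. Outside the members, Eif2ak2 (0.13), Pabpc1 (0.0320) and Mknk2 (0.13) turned as well. Other sign changes near 0 were Eif1ax without a filter (0.00675) and Eif1 with DESeq2 (−0.00760), and, with a library left out, values from −0.0285 to 0.0443 for Eif1, −0.0235 to 0.0177 for Eif1ax, −0.0589 to 0.0571 for Eef1akmt2, −0.0313 to 0.0141 for Mknk2, −0.0279 to 0.0164 for Eif2ak2 and −0.0258 to 0.0759 for Eif2d. The log2 ratio differences then ranged from −0.0544 to 0.0536 for Eif4a3 to Eif4a1 and from −0.18 to 0.0492 for Eif3j2 to Eif3j1, and the other 9 pairs kept their sign. The difference in the elongation to initiation ratio was 0.350, 0.128 without Eef1a1 and 0.0249 without Eef1a1 and Eef2, both added after seeing the data; with a library left out it ranged from 0.338 to 0.365. The cause of these changes was not tested. With the replicate block 49 members were called, 11 higher and 38 lower; the calls of Eif2ak4 and, outside the members, Mcts2 were lost (edgeR adjusted p = 0.0817 and 0.103). Same-numbered libraries correlated at 0.0426, −0.0785 and 0.0286 in their deviations from the group means, so the numbers were not taken as pairs, and not every library correlated best with its own number. The 5 members that were not tested had too few counts, and 3 of them had no count in any library. Whether deeper libraries would detect them was not tested.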

Other observations

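Mitochondria translate with their own factors. Of the 9 such genes found, 6 fell and 0 rose in Mmrn1-high cells, beside 30.5% lower and 30.7% higher over all genes tested. Their median log2 fold change was −0.28. Gfm1, a mitochondrial elongation factor G, fell from 119 ± 1.95 to 77.1 ± 2.40 CPM (SD, n = 3; −0.63 ± 0.04 SE, edgeR adjusted p = 3.08e-06), and Tufm, the mitochondrial counterpart of eEF1A, fell from 85.0 ± 9.79 to 58.9 ± 1.94 CPM (−0.53 ± 0.08 SE, edgeR adjusted p = 9.18e-04). Tsfm, its exchange factor, fell as well (−0.58 ± 0.05 SE). While cytoplasmic Eef1a1 rose, its mitochondrial counterpart thus fell in the same libraries. Of 9 genes of termination, recycling and ribosome rescue, 6 fell, beside 30.5% of all genes tested. The release factor Etf1 was at −0.41 ± 0.02 SE and the recycling factor Abce1 at −0.37 ± 0.03 SE. The rescue factors Pelo and Hbs1l were at −0.50 ± 0.07 SE and −0.58 ± 0.04 SE. Mcts2 was the one of these 9 genes that rose (0.42 ± 0.16 SE, edgeR adjusted p = 0.0492). That call was lost with DESeq2 (adjusted p = 0.232), without a filter on low counts (edgeR adjusted p = 0.0649) and among protein-coding genes alone (0.0551). It was also lost without any 1 library other than Mmrn1-high replicate 3 (edgeR adjusted p = 0.0595 to 0.126).

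The poly-A binding proteins and their inhibitors moved in different directions. Of 6 genes on this list, 2 fell, 2 rose and 2 missed the threshold, beside 30.5% lower and 30.7% higher over all genes tested. Those that missed it were Paip1 (−0.03 ± 0.10 SE, edgeR adjusted p = 0.836) and Larp4 (−0.01 ± 0.17 SE, edgeR adjusted p = 0.961). Pabpc4 fell from 233 ± 6.85 to 181 ± 10.8 CPM (SD, n = 3; −0.37 ± 0.05 SE, edgeR adjusted p = 2.33e-04), and Pabpc1, the main one, fell slightly (−0.12 ± 0.03 SE, edgeR adjusted p = 0.00479), a difference that turned to 0.03 with library size alone. Their inhibitors Paip2 and Paip2b rose, Paip2 from 94.5 ± 12.2 to 186 ± 2.51 CPM (0.97 ± 0.09 SE, edgeR adjusted p = 1.57e-04) and Paip2b from 41.8 ± 1.20 to 55.5 ± 1.85 CPM (0.41 ± 0.05 SE, edgeR adjusted p = 1.89e-04). Gigyf1, which works with eIF4E2 in repression, rose (0.51 ± 0.06 SE), while Eif4e2 fell, a call lost with library size alone (edgeR adjusted p = 0.111). Gigyf2, on the same list, missed the threshold at −0.04 ± 0.20 SE (edgeR adjusted p = 0.889), with groups that overlapped.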
